A study of Mus musculus with 16 samples.

Results

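Basal cells of the mammary gland, taken from nipple fragments and from duct fragments, were compared in a single-cell RNA-seq table. Members were chosen by their measured levels: a cell was called basal when, of 6 marker lists, it had its highest mean z-score on *Krt5*, *Krt14*, *Krt17*, *Acta2* and *Mylk*. This rule chose 224 cells, 101 from nipple and 123 from duct, out of 1317 cells that passed the quality limits and 1419 deposited cells. The series holds 4 nipple, 6 duct and 6 terminal end bud (TEB) fragments of mammary glands from C57BL/6 mice. The mice were 5 weeks old, in puberty, and carried *Krt14*-Cre with the Rosa26-mTmG reporter, which switches from a red to a green membrane protein where Cre has been active. Nipple and duct mice shared this genotype and age, no treatment was named, and the table holds stromal as well as epithelial cells. Each fragment was dissected singly, and its cells were sorted one by one into wells that held a barcode together with spike-in RNA of the ERCC set. The 3' ends of transcripts were counted with unique molecular identifiers (UMIs), so that 1 count stands for 1 captured molecule.

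The mammary epithelium is a bilayer. Luminal cells line the lumen, and basal cells surround them, touch the basement membrane and, in the mature gland, contract to eject milk. Basal cells combine keratins of stratified epithelia with smooth muscle proteins, and the pool includes cells that can regenerate a gland on transplantation. The nipple is the place where the ducts open to the skin, while the duct is the tube that grows into the fat pad behind the TEB. The comparison of locations asks in which genes basal cells at the root of the tree differ from those further along.

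Basal cells per fragment ranged from 22 to 29 in nipple and from 15 to 32 in duct, and their summed counts from 356411 to 719416 UMIs. The basal share of kept cells was 29.5% ± 3.02 in nipple (SD, n = 4) and 24.4% ± 6.26 in duct (SD, n = 6). These shares did not pass an exact two-sided permutation test over fragments (p = 0.181), and without duct replicate 3, whose share of 36.8% was the highest, the difference was 7.58 percentage points with an exact permutation p = 0.00794. Basal cells of the nipple held fewer genes. At an equal depth of 5000 UMIs the median cell had 1526 ± 28.8 genes in nipple (SD, n = 4) and 1748 ± 41.1 in duct (SD, n = 6), and the 2 ranges, 1484 to 1548 and 1697 to 1788, did not overlap (exact permutation p = 0.00476, two-sided, the smallest that the 210 splits allow). Unthinned medians were 2350 ± 76.0 and 2966 ± 170.1 genes. The median depth was 21727 ± 3396 UMIs per cell in nipple and 25360 ± 7996 in duct (exact permutation p = 0.438). The median ERCC share was higher in nipple, with 1.40% ± 0.0932 against 0.897% ± 0.0872 (exact permutation p = 0.00476), and its part in the gene results was not tested.

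**Figure D1:**
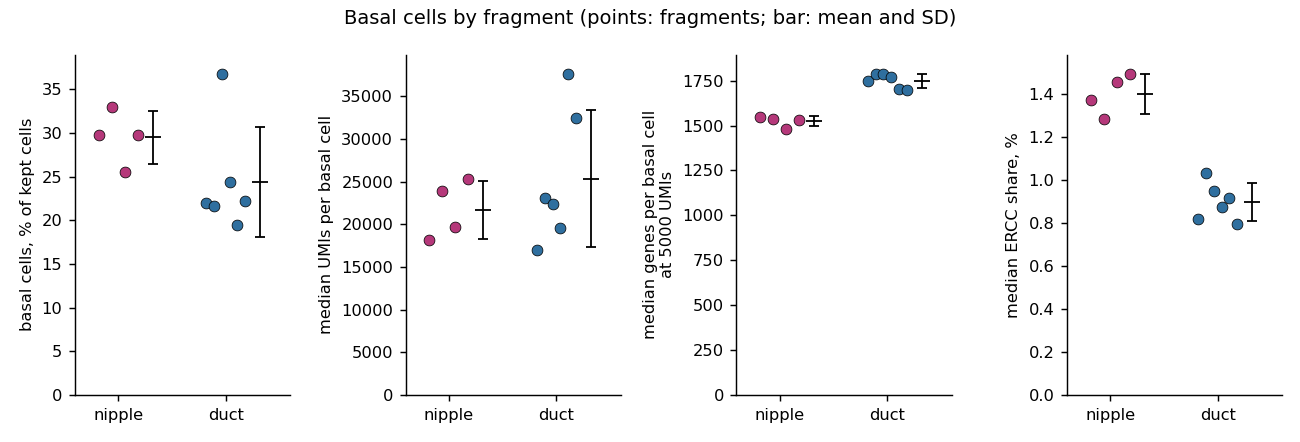
Basal share of kept cells in percent, median UMIs per basal cell, median genes per basal cell at 5000 UMIs and median ERCC share in percent, for each of the 4 nipple and 6 duct fragments, with mean and SD. Nipple fragments sit at 1484 to 1548 genes, below every duct fragment, and duct replicate 3 stands apart with a basal share of 36.8%.

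The genes of the rule describe the cells chosen. Those with enough counts were part of the fit over all genes, but nothing is read from their tests. *Krt5* stood at 1505 ± 171 CPM in nipple and 1784 ± 165 CPM in duct (SD, n = 4 and 6), and *Krt14*, its partner in the keratin filament, at 6290.2 ± 741 CPM in nipple and 4472 ± 561 CPM in duct. *Krt17* had 5682 ± 641 CPM in nipple and 5519 ± 786 CPM in duct. The smooth muscle actin *Acta2* had 4705 ± 363 CPM in nipple and 8448 ± 926 CPM in duct, and the myosin kinase *Mylk* 469 ± 99.9 CPM in nipple and 823 ± 281 CPM in duct. All these markers were thus present in both locations, with less *Acta2* in every nipple fragment. The cells themselves were uneven. After thinning to 5000 UMIs the median basal cell had 20 *Acta2* UMIs in nipple and 41 in duct, and 28 of 101 nipple cells but 2 of 123 duct cells had fewer than 10. In nipple 10 cells had no *Acta2* UMI at this depth, 2 or 3 in each of the 4 fragments, and 0 of 123 duct cells did. Of 14 nipple cells with fewer than 3 *Acta2* UMIs, 13 had at least 20 of *Krt5* and *Krt14*. The name basal thus fits the keratins of both locations, while a minority of the nipple cells lacked the actin. The test was also run on cells with at least 10 *Acta2* UMIs at this depth (73 nipple and 121 duct cells), a choice made after the data were seen, and calls that this changed are given below.

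Near the limit of the rule, 5 of the 224 cells had a basal score less than 0.25 above the next class, the smallest margins being 0.020 and 0.031, and 8 of the 619 other nipple and duct cells missed the basal class by less than 0.25, the closest by 0.016 and 0.040. A stricter check asked for at least 10 UMIs of *Krt5* and *Krt14* together and fewer than 3 of pericyte genes, and 92 of 101 nipple and 113 of 123 duct cells passed it. Among the cells that failed, 4 duct cells, all from duct replicate 1, had 51 to 95 UMIs of pericyte genes and at most 1 of *Krt5* and *Krt14*, and 5 nipple cells, from nipple replicates 2, 3 and 4, had 51 to 169 UMIs of pericyte genes and at most 3 of *Krt5* and *Krt14*. A list of epidermal genes was looked at in the summed cells. *Krt77*, *Flg2*, *Calm4*, *Calml3*, *Ivl* and *Mt4* had 0 UMIs in every basal sum. The 15 of 20 listed genes in the data summed to 979 to 1773 CPM in nipple and 1401 to 1786 CPM in duct. Of these 5 were tested and 0 were called. The list was not examined in the nipple cells with little *Acta2* alone. Whether skin cells that lack these genes were among the basal cells was not tested. The cornified envelope gene *Sprr1a* stood at 429, 0, 2.46 and 0 CPM in nipple replicates 1 to 4, where 196 of the 198 UMIs of replicate 1 came from 1 cell.

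RNA carried over between the wells of a plate was estimated from fibroblast and myeloid transcripts in the median basal cell, relative to the pooled profile of all cells of the fragment. This carry-over came to 4.48% to 10.6% in nipple and 5.33% to 20.2% in duct. Its expected share of a gene's UMIs in the higher location is given below for the called genes named where it was over 20%. The plates used the same 95 well barcodes. Since no label ties a fragment to a mouse, p-values measure the spread between fragments. Titles of all 4 nipple fragments begin with 1 digit that no duct title begins with, and those of the 6 duct fragments with 3 digits, 2 fragments each (replicates 1 and 2, 3 and 4, and 5 and 6). What the digit stands for is not given, and in nipple it cannot be told apart from location. The 6 duct fragments may thus be 3 sets. In deviations from the duct mean, over log2 CPM of all genes tested, the 3 pairs of ducts with the same digit had correlations of −0.118 to 0.00209 and the 12 other pairs −0.313 to −0.142, a description across genes. With each duct pair summed to 1 sample, a choice made after the data were seen, 61 genes were called higher in nipple and 167 in duct, against the 152 and 242 given below. In the numbers of genes and ERCC shares above, 4 against 3 values allow 35 splits, and both gave p = 0.0571 in the exact permutation test, the smallest possible.

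Raw UMIs were summed per fragment over its basal cells, scaled to CPM, which gives every fragment the same total, with TMM factors, and tested with edgeR. Log2 differences are nipple minus duct, and a gene was called at a Benjamini-Hochberg adjusted p under 0.05. Of 7185 genes tested, 394 were called (5.48%), and 13 of those tested and 5 of those called are genes of the rule. The nipple was higher for 152 genes (2.12%) and the duct for 242 (3.37%), and an unadjusted p under 0.05 was reached by 1205. Nipple and duct fragments did not overlap for 291 of the called genes (4.05% of those tested), 122 higher in nipple and 169 higher in duct. The fitted difference was at least 2-fold for 314 genes and at least 8-fold for 109, whereas the median of all genes tested was −0.02 on the log2 scale. Limited to cells that passed the epithelial check, 126 genes were higher in nipple (1.8% of 7002) and 205 in duct (2.93%). With the *Acta2* minimum the counts were 135 and 252. Of the called genes named in the text, 10 lost the call with it, *Cald1* (0.0788), *Lama1* (0.0658), *Igfbp6* (0.11), *Pappa* (0.0968), *Gpx3* (0.0984), *Slc6a15* (0.0817), *Cars* (0.211), *Yars* (0.0743), *Slc7a11* (0.0715) and *Shmt2* (0.0644, adjusted p in edgeR). Among named genes not called before, *Cyp1b1* (0.00811), *Cdk4* (0.0292) and *Lgals1* (0.0303) gained the call, higher in duct. *Dst* (0.0469) gained it too, higher in nipple. Some of the list counts given below moved by 1 or 2 genes with this minimum, and none by more. Each list count is to be read against the 2.12% and 3.37% of all genes called higher in nipple and in duct. The filter on low counts ran over all locations. A gene with hardly any nipple UMIs could thus enter a list on its duct or TEB counts, and counts and medians of lists may lean toward duct. With duct pairs summed 22 of the called genes named lost the call, at adjusted p of 0.0577 to 0.216 in edgeR. These were *Sct*, *Nrg1*, *Fst*, *Igfbp6*, *Pappa*, *Id2*, *Cst3*, *Lgals9*, *S100a14*, *Krt15*, *Epha4*, *Cars*, *Sars*, *Tars*, *Yars*, *Slc7a11*, *Asns*, *Shmt2*, *Sesn2*, *Trib3*, *Herpud1* and *Slc2a1*. Leaving out 1 fragment gave 261 to 364 called genes, with the lowest count without nipple replicate 4. The number higher in nipple was then between 79 and 139, and it was 79, 95 and 86 without nipple replicates 2, 3 and 4.

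**Figure D2:**
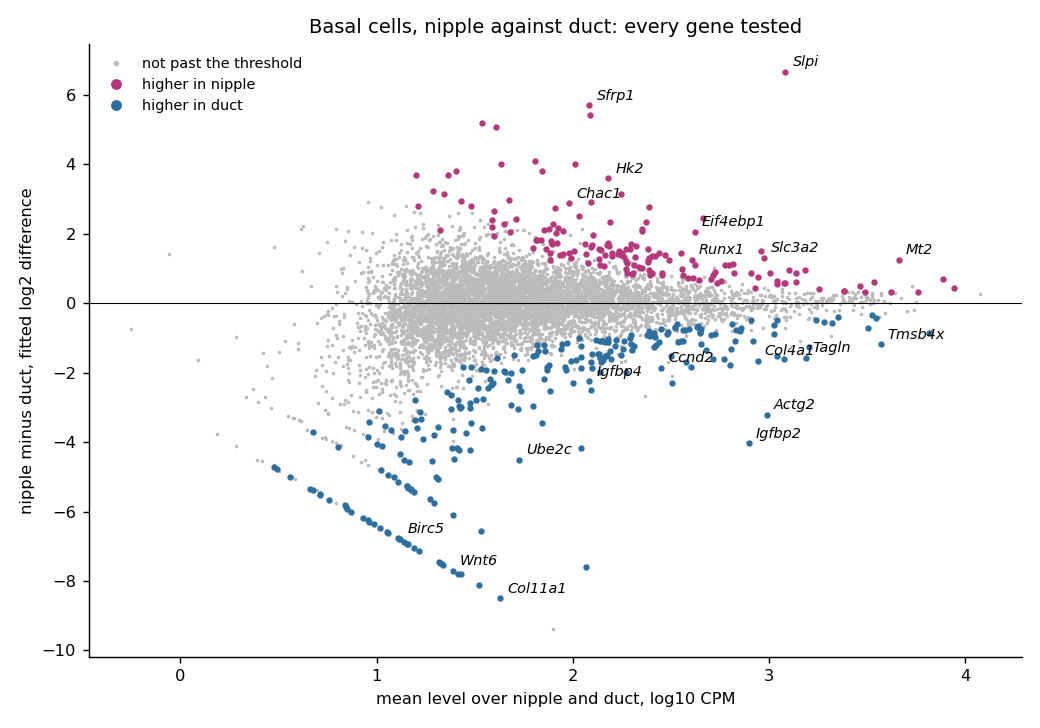
Fitted log2 difference, nipple minus duct, against the mean level in log10 CPM for the 7185 genes tested in summed basal cells, with 152 called genes higher in nipple and 242 higher in duct in color. The line of points at the lower left holds genes with 0 UMIs in nipple, whose fitted differences are set by a prior count and are not read as folds in the text.

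Several contraction genes were lower in nipple basal cells. Of 17 tested members of a smooth muscle contraction list, 4 were higher in duct (3.37% of all genes were) and 0 in nipple, with a median log2 difference of −0.38 against −0.02 over all genes. *Actg2*, the enteric smooth muscle actin (GRCm38 chromosome 6, 83512905 to 83536265), had 165, 169.6, 145 and 282 CPM in nipple replicates 1 to 4 and 1291 to 2258 CPM (median 1792) in duct. Every nipple fragment lay below every duct fragment (log2 difference −3.21, standard error 0.33, edgeR adjusted p = 5.28e-06). In single cells at 5000 UMIs, at least 1 *Actg2* UMI was counted in 23.8% of nipple (95% exact binomial interval 15.9 to 33.3) and 90.2% of duct basal cells (83.6 to 94.9), while in fibroblast class cells, which should lack the gene, the shares were 2.48% and 5.41%. Such intervals on shares of cells, here and below, pool the cells of a location and cover counting error only. They leave out the spread between fragments and are not a test of the locations. Median depths were 21080 and 21283 UMIs over these basal cells and 37999 and 32696 over the fibroblast class cells, and unthinned shares were 33.7% and 91.1%.

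*Tagln*, which encodes the actin binding protein transgelin, had 678, 705, 747 and 972 CPM in nipple and 1535 to 3528 CPM (median 2103) in duct, again without overlap (log2 difference −1.57, standard error 0.28, edgeR adjusted p = 0.00272). Caldesmon, *Cald1*, which binds actin and tropomyosin, differed less, with 682, 878, 823 and 937 CPM in nipple and 1069.8 to 1890.2 CPM (median 1172) in duct. It was called (log2 difference −0.63, standard error 0.16, edgeR adjusted p = 0.0124), but its adjusted p was 0.0679 without nipple replicate 1 and 0.0788 with the *Acta2* minimum. *Kcnmb1*, a subunit of the calcium-activated potassium channel of smooth muscle, had 3 UMIs in nipple and 102 in duct, a rate 25.3 times higher (95% counting interval 8.43 to 125) in duct with an edgeR adjusted p of 0.02, and an adjusted p of 0.0598 to 0.0633 without nipple replicates 1, 3 or 4. The tropomyosins, which cover the actin filament, were not called. *Tpm2* stood at 3004, 3191, 3283 and 3100.4 CPM in nipple and 3181 to 5330.1 CPM (median 4106) in duct (log2 difference −0.38, standard error 0.13, edgeR adjusted p = 0.0808), and *Tpm1* gave a log2 difference of −0.23, edgeR adjusted p = 0.411, so that neither passed. With the *Acta2* minimum 3 of 16 tested genes of the list were higher in duct, where *Actg2* (−2.81, edgeR adjusted p = 5.92e-07) and *Tagln* (−1.27, edgeR adjusted p = 0.00171) were still lower in nipple. The pericyte list, whose cells also contract, summed to 110 to 430 CPM in nipple and 38.5 to 1095 CPM in duct, and 0 of its 4 tested genes were called in either direction, where 2.12% and 3.37% of all genes were.

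**Figure D3:**
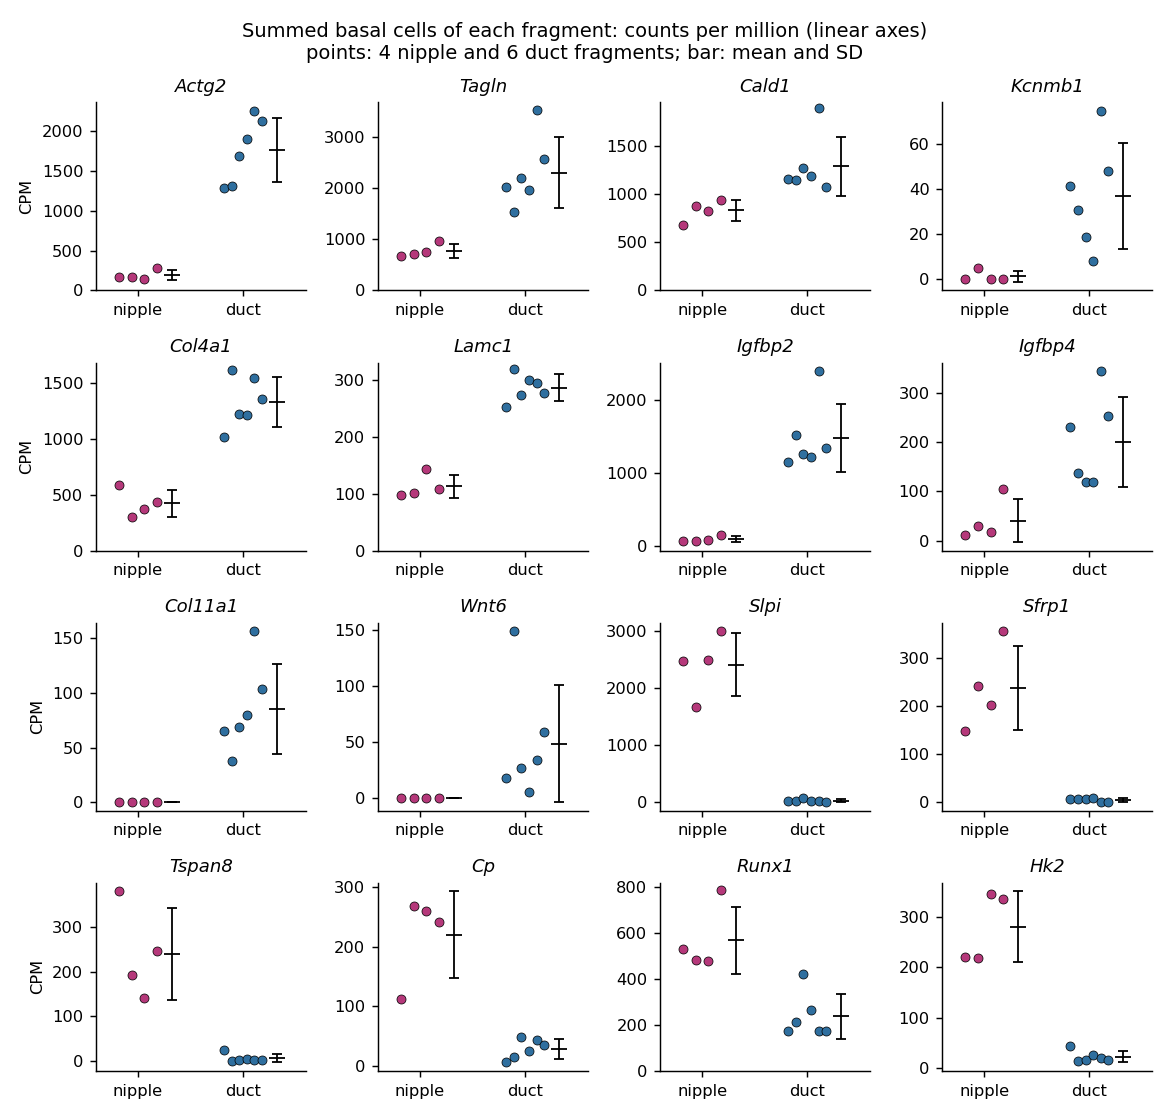
CPM of 16 genes in the summed basal cells of each fragment, on linear axes, with mean and SD over 4 nipple and 6 duct fragments. *Actg2* lies between 145 and 282 CPM in nipple and between 1291 and 2258 CPM in duct, *Slpi* shows the opposite order, and *Cald1* has fragments closer together than either.

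Several basement membrane genes were also lower in nipple. The basement membrane is the sheet of laminin and type IV collagen on which basal cells sit, and hemidesmosomes and integrins attach the cells to it. Of 20 tested genes on this list, 6 were higher in duct (3.37% of all genes were) and 0 in nipple, and the median log2 difference was −0.65. The collagen IV chain gene *Col4a1* stood at 584, 302, 375 and 429.9 CPM in nipple and 1018 to 1613 CPM (median 1285) in duct (log2 difference −1.65, standard error 0.18, edgeR adjusted p = 9.91e-08). Its head-to-head partner *Col4a2* gave 177, 302, 214 and 387 CPM against 460.1 to 865 CPM (median 693) (log2 difference −1.33, standard error 0.22, edgeR adjusted p = 0.000141). In both genes the highest nipple fragment lay below the lowest duct fragment.

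Of the laminin chains, *Lamc1* had 97.4, 101, 143 and 109 CPM in nipple and 252 to 319 CPM (median 286) in duct (log2 difference −1.35, standard error 0.26, edgeR adjusted p = 0.00127). The fragments did not overlap, nor did they for *Lama1* at much lower counts, with a log2 difference of −2.22, edgeR adjusted p = 0.0125, and an adjusted p of 0.0513 to 0.0531 without nipple replicates 3 or 4. *Col7a1*, the collagen of the anchoring fibrils below the membrane, stood at 80.1, 99.2, 113 and 80.3 CPM in nipple and 193 to 341 CPM (median 248) in duct (log2 difference −1.48, standard error 0.30, edgeR adjusted p = 0.00189). Components on the cell side of the junction were not called. *Plec*, the linker to keratin, gave a log2 difference of −0.60, edgeR adjusted p = 0.08, and *Col17a1*, a transmembrane collagen, one of −0.10, edgeR adjusted p = 0.897. Of 16 tested integrins and adhesive matrix genes, 1 passed, *Itga3*, a chain of a laminin receptor, at 216, 106, 175 and 118 CPM in nipple and 288 to 456 CPM (median 355) in duct (log2 difference −1.25, standard error 0.26, edgeR adjusted p = 0.00272). *Sparc* and *Thbs1*, both secreted matrix proteins, had adjusted p of 0.671 and 0.331 in edgeR. *Col4a2* lies beyond the naming rule and was named after its values were seen.

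With the *Acta2* minimum 4 genes of the basement membrane list were higher in duct, *Col4a1* (−1.39, edgeR adjusted p = 2.96e-05), *Lamc1* (−1.18, edgeR adjusted p = 0.00825) as well as *Col4a2* (0.000352) and *Col7a1* (0.0295), and 1 was higher in nipple, the linker *Dst* (0.73, edgeR adjusted p = 0.0469), while *Lama1* (0.0658) no longer passed.

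The largest rise in nipple basal cells among the 12 genes named was that of *Slpi*. *Slpi*, a secreted inhibitor of leukocyte proteases (GRCm38 chromosome 2, 164354070 to 164389095), reached 2474, 1665, 2485 and 2988 CPM in nipple replicates 1 to 4 and 0 to 75 CPM (median 13) in duct (log2 difference 6.67, standard error 0.65, edgeR adjusted p = 3.25e-05). At 5000 UMIs it was counted in 73.3% of nipple basal cells (63.5 to 81.6) and 4.88% of duct basal cells (1.81 to 10.3), against 16.5% and 2.70% of fibroblast class cells. All 4 nipple fragments lay far above all 6 duct fragments. A lack of overlap is part of the naming rule for these 12 genes and is no further evidence.

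Wnt proteins are short-range signals that sustain stem and progenitor cells in many epithelia, and both Wnt genes raised in nipple encode secreted antagonists. *Sfrp1* (GRCm38 chromosome 8, 23411502 to 23449632) had 149, 243, 202 and 357 CPM in nipple and 0 to 8.26 CPM (median 5.85) in duct (log2 difference 5.70, standard error 0.79, edgeR adjusted p = 6.26e-05). *Wif1*, which binds Wnt proteins, had 216, 84.8, 111 and 107 CPM against 0 to 28.3 CPM (median 5.72) (log2 difference 3.80, standard error 0.53, edgeR adjusted p = 1.7e-05). Neither gene overlapped between locations, which the naming rule asked of both. *Sfrp1* was counted in 40.6% of nipple (30.9 to 50.8) and 3.25% of duct basal cells (0.893 to 8.12) at 5000 UMIs, and in 66.9% and 32.4% of fibroblast class cells, which make it too. The ligand gene *Wnt6* moved the other way. It had no UMI in nipple and 5.5 to 149 CPM (median 30.7) in duct, at least 34-fold higher there when all nipple fragments together are given a floor of 3 UMIs (edgeR adjusted p = 0.000403), and 1 duct fragment of 149 CPM stood far above the others. Of 20 tested genes of the pathway, 2 were higher in nipple and 1 in duct (2.12% and 3.37% of all genes were), with a median of −0.17. *Dkk3*, a member of the Dickkopf family, had a log2 difference of 0.50, edgeR adjusted p = 0.676, and *Wnt10b*, *Sfrp5* and *Frzb* were at 0 in all fragments.

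*Tspan8*, a membrane tetraspanin (GRCm38 chromosome 10, 115816832 to 115849893), stood at 379, 192, 141 and 246 CPM in nipple and 0 to 23.7 CPM (median 2.58) in duct (log2 difference 5.42, standard error 0.58, edgeR adjusted p = 9.91e-08). It was counted in 29.7% of nipple (21 to 39.6) and 3.25% of duct basal cells (0.893 to 8.12) at 5000 UMIs, where fibroblast class cells gave 1.65% and 0%. *C4b*, a complement component, had 30.3, 133, 27.1 and 78.5 CPM in nipple and 0 to 5.77 CPM (median 0) in duct (log2 difference 5.20, standard error 1.02, edgeR adjusted p = 0.00127), and was the only one of 22 tested immune and complement genes to pass. *Ptx3*, a soluble pattern recognition protein, had 115, 141, 143 and 87.4 CPM against 0 to 31.4 CPM (median 0) (log2 difference 4.11, standard error 0.79, edgeR adjusted p = 0.0011). *Cp*, the plasma copper protein ceruloplasmin, had 113, 267, 259 and 241 CPM against 5.94 to 47.6 CPM (median 29.9) (log2 difference 2.90, standard error 0.46, edgeR adjusted p = 6.59e-05). For each of these genes the fragments of the locations did not overlap, which the naming rule asked of them.

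*Scn7a*, of the sodium channel gene family, was also among the 12 genes most raised in nipple and had 162, 178, 234 and 205 CPM in nipple and 0 to 31.7 CPM (median 8.69) in duct (log2 difference 4.02, standard error 0.61, edgeR adjusted p = 5.01e-05). In ER+ luminal cells it was higher in nipple as well (4.91, edgeR adjusted p = 0.00167). Of the Schwann cell and melanocyte list 0 of 2 tested genes were called. *Cdh19*, *Dct*, *Tyrp1* and *Mlana* were at 0, and the list summed to 19.5 to 56.7 CPM in nipple and 13 to 59.4 CPM in duct. *Hk2*, a hexokinase of glycolysis, had 221, 218, 345 and 335 CPM in nipple and 14.2 to 44.5 CPM (median 18.9) in duct (log2 difference 3.60, standard error 0.42, edgeR adjusted p = 4.22e-07), with an expected carry-over of 23.1%. It was counted in 39.6% of nipple and 8.13% of duct basal cells at 5000 UMIs, and in 96.7% and 89.2% of fibroblast class cells. The stromal protease *Mmp3* (4.01, edgeR adjusted p = 0.00481) and *Chac1* were among these 12 as well, and carry-over was expected to give 84.9% of the *Mmp3* UMIs.

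Of the 12 genes most raised in duct, 4 had no UMI in nipple. These were *Col11a1*, a fibrillar collagen chain, with 37.8 to 157 CPM (median 74.5) in duct and at least 59.6-fold higher there, *Serpinb11*, a serpin, with 38.7 to 96.8 CPM (median 69.3) and at least 43.5-fold, *Tmem59l*, a membrane protein, with 40.1 to 68.8 CPM (median 48.6) and at least 36.3-fold, and *A230065H16Rik*, with 10.1 to 123 CPM (median 47.4) and at least 33.8-fold, all against the same floor. Their edgeR adjusted p were 9.91e-08, 5.99e-08, 7.02e-07 and 0.00488. The naming rule asked for no overlap, so each of the 6 duct fragments had to hold UMIs of all 4 genes.

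*Ppfibp2*, a liprin, had 1 UMI in nipple and 187 in duct, a rate 139 times higher (95% counting interval 24.7 to 5534), with an edgeR adjusted p of 3.07e-05. *Rtn1*, a reticulon of the endoplasmic reticulum, had 8.66, 6.4, 0 and 0 CPM in nipple and 31.4 to 108 CPM (median 39.7) in duct (log2 difference −3.73, standard error 0.71, edgeR adjusted p = 0.000982). The hormone gene *Sct*, secretin, had 8.66, 0, 41.9 and 0 CPM against 110.1 to 393 CPM (median 199) (log2 difference −4.17, standard error 1.03, edgeR adjusted p = 0.0301), and its adjusted p was 0.0679 to 0.0923 without nipple replicates 1, 2 or 4. *Ube2c*, *Cenpw* and *Cenpa*, of the dividing cell, are described with the cell cycle below.

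Insulin-like growth factors drive mammary growth, and binding proteins hold or release them. *Igfbp2* (GRCm38 chromosome 1, 72824503 to 72852474) showed one of the largest changes at high level, with 69.3, 60.8, 81.3 and 152 CPM in nipple and 1155 to 2401 CPM (median 1299) in duct (log2 difference −4.02, standard error 0.44, edgeR adjusted p = 5.01e-05). At 5000 UMIs it was counted in 14.9% of nipple (8.56 to 23.3) and 84.6% of duct basal cells (76.9 to 90.4), against 2.48% and 18.9% of fibroblast class cells. *Igfbp4* had 10.8, 30.4, 17.3 and 105 CPM in nipple and 118 to 345 CPM (median 184) in duct (log2 difference −2.25, standard error 0.48, edgeR adjusted p = 0.00749). Both genes were lower in every nipple fragment than in any duct fragment, which the naming rule asked of *Igfbp2*.

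*Htra1* and *Pappa*, proteases that cut these binding proteins, were lower in nipple as well. *Htra1* had 368, 234, 212 and 289 CPM against 531 to 777 CPM (median 601) (log2 difference −1.19, standard error 0.21, edgeR adjusted p = 0.000449). *Pappa* had 3 nipple and 66 duct UMIs, a rate 16.4 times higher (95% counting interval 5.37 to 81.5) with an edgeR adjusted p of 0.0473, and an adjusted p of 0.052 to 0.128 without nipple replicates 2, 3 or 4 or duct replicates 1, 3, 4 or 6. *Igfbp6* went the other way, with 113, 314, 224 and 96.3 CPM in nipple and 40.6 to 89.5 CPM (median 58.4) in duct (log2 difference 1.62, standard error 0.42, edgeR adjusted p = 0.016). However, carry-over was expected to give 59.7% of its nipple UMIs, and its adjusted p was 0.0587 to 0.164 without nipple replicates 2 or 3. *Igfbp5* and *Igfbp3*, at higher counts, gave log2 differences of 0.44, edgeR adjusted p = 0.704, and −0.79, edgeR adjusted p = 0.179. Of 17 tested genes of the IGF and FGF pathways, 4 were higher in duct and 1 in nipple, with a median of −0.53. Over all genes 3.37% and 2.12% were.

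Of 8 tested EGF family and receptor genes, 3 were higher in duct (3.37% of all genes were) and 0 in nipple, with a median of −0.69. The 3 include 1 gene with hardly any nipple UMIs and 1 with a large carry-over, both given below. The neuregulin gene *Nrg1*, a ligand of ERBB receptors made by basal cells, had 175, 115, 205 and 164 CPM in nipple and 226 to 492 CPM (median 276) in duct (log2 difference −0.93, standard error 0.27, edgeR adjusted p = 0.0341), and an adjusted p of 0.0638 to 0.104 without nipple replicates 1, 2 or 4 or duct replicates 5 or 6. The receptor gene *Erbb2* had 2 nipple and 58 duct UMIs, a rate 21.6 times higher (95% counting interval 5.72 to 183) with an edgeR adjusted p of 0.0227, and an adjusted p of 0.0576 to 0.0723 without nipple replicates 1, 2 or 3 or duct replicate 6. *Areg*, the luminal ligand of pubertal growth, was called too (edgeR adjusted p = 0.00123), but the expected carry-over equalled 135% of its duct UMIs. The feedback inhibitor *Errfi1* did not pass, with a log2 difference of 1.01, edgeR adjusted p = 0.0729. *Hbegf*, another ligand, had an adjusted p of 0.859 in edgeR.

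In the TGF-beta and BMP pathway, which restrains growth of many epithelia, 2 of 19 tested genes were higher in nipple and 0 in duct. Over all genes 2.12% were higher in nipple. The median of the list was 0.26. The type I receptor *Tgfbr1* had 275, 216, 86.3 and 234 CPM in nipple and 15.9 to 86.7 CPM (median 48.8) in duct (log2 difference 1.96, standard error 0.44, edgeR adjusted p = 0.00501), and of the nipple fragments replicate 3 alone reached into the duct range. *Fst*, follistatin, which binds activins, had 1277, 605, 530.0 and 1004 CPM against 240.4 to 548 CPM (median 373) (log2 difference 1.10, standard error 0.28, edgeR adjusted p = 0.023), with an overlap of the fragments and an adjusted p of 0.0506 to 0.0863 without nipple replicates 1 or 4 or duct replicate 5. *Fstl1* and *Ltbp2* gave −0.56, edgeR adjusted p = 0.381, and −0.63, edgeR adjusted p = 0.342. *Id1* and *Id2*, helix-loop-helix inhibitors, were higher in duct. *Id1* had 97.4, 88, 76.4 and 46.4 CPM in nipple and 171 to 398 CPM (median 212) in duct (log2 difference −1.62, standard error 0.38, edgeR adjusted p = 0.00749), and *Id2* 219, 41.6, 93.7 and 87.4 CPM against 253 to 1038 CPM (median 350.2) (log2 difference −2.29, standard error 0.55, edgeR adjusted p = 0.028), the latter with an adjusted p of 0.072 to 0.0884 without nipple replicates 2, 3 or 4. *Id3* and *Id4*, of the same family, did not pass (−0.94, edgeR adjusted p = 0.201, and 0.69, edgeR adjusted p = 0.679).

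The one basal transcription factor called higher in nipple, of 28 tested, was *Runx1*, with 530.3, 483, 481 and 787 CPM in nipple and 172 to 421 CPM (median 195) in duct (log2 difference 1.26, standard error 0.26, edgeR adjusted p = 0.00213). All 4 nipple fragments lay above all 6 duct fragments. The median of the list was 0.11, and *Myc* gave 0.61, edgeR adjusted p = 0.218. In the Notch pathway, which steers the choice between basal and luminal fate, 0 of 10 tested genes passed in edgeR, and *Hes1*, a target, and *Jag1*, a ligand, gave −0.35, edgeR adjusted p = 0.74, and 0.06, edgeR adjusted p = 0.963. Carry-over was expected to give 24.8% of the *Hes1* UMIs in duct. Of 19 tested guidance cues 2 were higher in duct (3.37% of all genes were) and 0 in nipple, with a median of −0.56. The semaphorin *Sema3b* had 1 nipple and 69 duct UMIs, a rate 51.4 times higher (95% counting interval 8.93 to 2060.4) with an edgeR adjusted p of 5.01e-05. The ephrin receptor *Epha4* had 23.8, 8, 7.39 and 25 CPM in nipple and 41.6 to 77.9 CPM (median 63.4) in duct (log2 difference −1.96, standard error 0.57, edgeR adjusted p = 0.036), and an adjusted p of 0.0573 to 0.118 without nipple replicates 2 or 3 or duct replicates 2, 3 or 4.

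Of 7 tested keratins outside the rule, 3 were lower in nipple (3.37% of all genes were) and 0 higher, with a median of −0.71. *Krt15*, a basal keratin of ducts and hair follicles, had 814, 811, 1102 and 1083 CPM in nipple and 1348 to 2645 CPM (median 2376) in duct (log2 difference −1.25, standard error 0.34, edgeR adjusted p = 0.0478). The fragments did not overlap, yet the call was close to the threshold, with an adjusted p of 0.0706 to 0.132 without nipple replicates 1, 2, 3 or 4 or duct replicates 1, 2, 3, 4 or 5. *Krt19* (log2 difference −1.59, standard error 0.24, edgeR adjusted p = 0.00024) and *Krt8* (log2 difference −0.71, standard error 0.13, edgeR adjusted p = 0.000406) are luminal keratins. Carry-over was expected to give 36.2% of the *Krt19* and 18.8% of the *Krt8* UMIs in duct, and a list of 18 luminal markers, with 3 of 7 tested genes higher in duct and 0 in nipple, summed to 4853 to 6756 CPM in nipple and 7629 to 11187 CPM in duct. *Krt18*, of the rule's luminal lists and so given without a test, stood at 1362, 821, 873 and 1094 CPM in nipple and 926 to 1351 CPM (median 1057) in duct, and *Elf5*, another rule gene, was at 0 in all 10 fragments. The part of luminal RNA in the duct calls was not tested.

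Of 20 tested S100, annexin and galectin genes, 3 were higher in duct, 5 with the *Acta2* minimum, and 1 in nipple, with a median of −0.21. Over all genes 3.37% were higher in duct and 2.12% in nipple. *S100a14* had 62.8, 52.8, 17.3 and 16.1 CPM in nipple and 134 to 267 CPM (median 233) in duct (log2 difference −2.49, standard error 0.60, edgeR adjusted p = 0.0165), and an adjusted p of 0.0672 to 0.0754 without nipple replicates 3 or 4. The lectin gene *Lgals3* had 357, 195, 369.7 and 214 CPM against 477 to 1439 CPM (median 944) (log2 difference −1.79, standard error 0.27, edgeR adjusted p = 5.87e-05), with an expected carry-over of 29.8% in duct. *Lgals9*, another galectin, was higher in nipple, with 208, 226, 160.2 and 330.0 CPM against 48 to 132 CPM (median 83.8) (log2 difference 1.44, standard error 0.40, edgeR adjusted p = 0.0249), and an adjusted p of 0.0505 to 0.15 without nipple replicates 2 or 4 or duct replicates 2, 4 or 6. *Anxa6* gave −0.68, edgeR adjusted p = 0.0119, and an adjusted p of 0.0531 without nipple replicate 1. *S100a6* and *Lgals1*, both among the most abundant, did not pass, at 0.02, edgeR adjusted p = 0.968, and −0.41, edgeR adjusted p = 0.0879. *Lgals1* passed with the *Acta2* minimum (−0.47, edgeR adjusted p = 0.0303).

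Of 14 tested matrix proteases, 3 were higher in nipple (2.12% of all genes were) and 0 in duct, with a median of 0.32. The lysosomal cathepsin *Ctsl* had 2212, 1683, 2169 and 2012 CPM in nipple and 938 to 1139.9 CPM (median 1049) in duct (log2 difference 0.95, standard error 0.16, edgeR adjusted p = 0.000225), with no overlap. The gelatinase *Mmp2* had 154, 266, 343 and 273 CPM against 0 to 86.2 CPM (median 55.7) (log2 difference 2.35, standard error 0.53, edgeR adjusted p = 0.00696), with an expected carry-over of 22.8% in nipple. *Mmp3*, with the carry-over given above, had an adjusted p of 0.0712 without nipple replicate 3. *Plaur*, the urokinase receptor, and *Ctsb* did not pass (0.627 and 0.388 in edgeR). Of 16 tested protease inhibitors, *Slpi* and *Cst3* were higher in nipple and *Serpinb11* in duct. *Cst3*, cystatin C, had 764, 656, 449 and 785 CPM in nipple and 280.4 to 440.2 CPM (median 410.3) in duct (log2 difference 0.82, standard error 0.22, edgeR adjusted p = 0.0203), and an adjusted p of 0.0515 to 0.0953 without nipple replicates 1, 2 or 4 or duct replicates 3 or 6. *Cstb* and *Serpinb5* gave adjusted p of 0.617 and 0.784 in edgeR.

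Several genes of the dividing cell were rarer in nipple. Of 32 tested cell cycle genes 9 were higher in duct (3.37% of all genes were) and 0 in nipple. The median log2 difference was −1.71, which stayed at −1.71 with the 4 genes that had no UMI in 1 location set to their bound. The filter on low counts ran over all locations, so a gene could enter the test on its duct or TEB counts alone. Genes with hardly any nipple UMIs entered in this way. The count and the median may thus lean toward duct and are not read as a shift of the whole list. *Birc5*, survivin, had no UMI in nipple and 2.36 to 56.4 CPM (median 19.5) in duct, at least 16.6-fold higher (edgeR adjusted p = 0.000708), with an expected carry-over of 23.7%. The mitotic cyclins had 1 (*Ccnb1*) and 2 (*Ccnb2*) UMIs in nipple, and their rates in duct were 55.9 times higher (95% counting interval 9.73 to 2237) and 42.1 times higher (95% counting interval 11.4 to 352), with edgeR adjusted p of 0.00278 and 0.000333. *Ube2c*, a ubiquitin ligase partner that ends mitosis, had 4.33, 9.6, 0 and 1.78 CPM in nipple and 25 to 146 CPM (median 105) in duct (log2 difference −4.51, standard error 0.78, edgeR adjusted p = 0.000688), but an adjusted p of 0.0814 in cells that passed the epithelial check. The centromere genes *Cenpw* (log2 difference −4.22, standard error 0.71, edgeR adjusted p = 0.000226) and *Cenpa* (log2 difference −3.60, standard error 0.67, edgeR adjusted p = 0.000718) showed the same order. *Mcm2*, of the replication helicase, had no nipple UMI and at least 6.96-fold more in duct, with an expected carry-over of 28.5% and an adjusted p of 0.0533 to 0.0701 without nipple replicates 1, 2, 3 or 4 or duct replicate 6.

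These counts rest on few cells. With 29 genes of the list counted at 5000 UMIs per cell, at least 3 UMIs were found in 23 of 101 nipple cells (22.8%, exact interval 15.0 to 32.2) and 36 of 123 duct cells (29.3%, 21.4 to 38.2), and at least 10 UMIs in 2 nipple and 10 duct cells. These intervals again leave out the spread between fragments. The sums were 179 UMIs in nipple and 363 in duct. *Ccnd2*, a cyclin of early cycle entry named after its values were seen, differed at a higher level, with 60.6, 139, 153 and 137 CPM in nipple and 359 to 617 CPM (median 421) in duct (log2 difference −1.85, standard error 0.22, edgeR adjusted p = 6.83e-07), and no overlap. The inhibitor *Cdkn1a* and the kinase *Cdk4* did not pass, with log2 differences of −0.70, edgeR adjusted p = 0.135, and −0.68, edgeR adjusted p = 0.0747. *Cdk4* passed with the *Acta2* minimum (−0.86, edgeR adjusted p = 0.0292). *Cdk1* (−3.79, edgeR adjusted p = 0.000355), *Top2a* (−4.49, edgeR adjusted p = 0.00124) and *Mcm5* (−3.36, edgeR adjusted p = 0.0082) were the other called genes of the list, to which *Cenpw* and *Cenpa* do not belong.

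Genes of fatty acid, sterol and redox metabolism changed little, with 2 of 34 tested genes higher in duct, 0 in nipple and a median of −0.19. *Gpx3*, a secreted glutathione peroxidase, was called at 0.0417 in edgeR, though the expected carry-over equalled 101% of its duct UMIs, and its adjusted p was 0.0541 to 0.13 without nipple replicates 1, 2, 3 or 4 or duct replicates 1, 2 or 6. Of 27 tested immediate early and stress genes, which respond to dissociation, 0 passed in edgeR and the median was −0.02. *Hspb1* and *Hspa8* had log2 differences of 0.09 and −0.02.

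**Figure D4:**
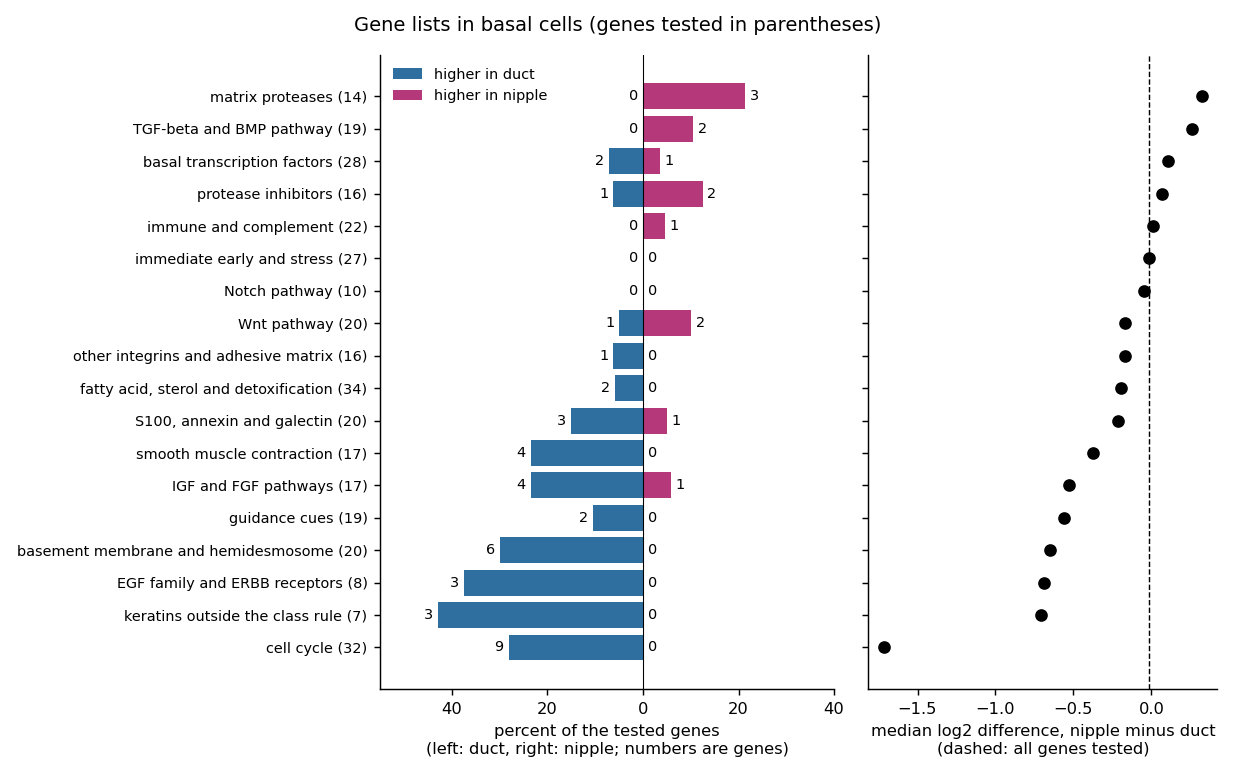
Left, the percent of tested genes of each list that were called higher in duct (blue, to the left) or nipple (magenta, to the right), with the number of genes at the bar and the number tested in parentheses. Right, the median log2 difference of each list, from −1.71 for the cell cycle to 0.32 for matrix proteases, with −0.02 for all genes tested as a dashed line.

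The study singled out 25 basal genes. It chose part of them on these samples, so that their direction is no independent evidence, and took others from earlier work or another screen. Of 21 tested, 3 were higher in nipple (*Slpi*, *Sfrp1* and *Tspan8*) and 4 in duct. Besides *Actg2* and *Igfbp2* these were *Ttc9*, without a UMI in nipple and at least 30.3-fold higher in duct (edgeR adjusted p = 0.00169), and *Slc6a15*, with 1 against 25 UMIs, an adjusted p of 0.0337, and an adjusted p of 0.0555 to 0.0971 without nipple replicates 1, 3 or 4 or duct replicates 2 or 6. *Ccdc129* was at 71.4, 92.8, 163 and 57.1 CPM in nipple and 1.84 to 59.4 CPM (median 20.5) in duct (log2 difference 2.03, standard error 0.71, edgeR adjusted p = 0.0909), and *Alpl*, alkaline phosphatase, at 139, 67.2, 93.7 and 66 CPM against 104 to 369.9 CPM (median 258) (log2 difference −1.46, standard error 0.54, edgeR adjusted p = 0.142). Neither passed, nor did *Cyp1b1* (0.16), *Ereg* (0.147), *Mycn* (0.104) or *Csn3* (0.694).

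The stem cell receptor *Lgr5* fell below the filter on low counts, with 46 UMIs in nipple and 6 in duct. Its levels were 47.6, 3.2, 37 and 12.5 CPM in nipple and 0 to 5.77 CPM in duct, and nipple replicate 2 lay inside the duct range. The basal factors *Trp63* (0.36, edgeR adjusted p = 0.869), *Sox9* (0.48, edgeR adjusted p = 0.489), *Snai2* (0.34, edgeR adjusted p = 0.634) and *Id4* (0.69, edgeR adjusted p = 0.679) did not pass, and neither did the Notch ligand *Dll1* (0.41, edgeR adjusted p = 0.711). The surface markers *Cd34* (−1.20, edgeR adjusted p = 0.423) and *Cd200* (−0.85, edgeR adjusted p = 0.65) had 20 and 53 UMIs in nipple and 60 and 124 in duct. *Tbx2*, *Bcl11b* and *Sema3a* had under 20 UMIs in each location and were not tested.

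*Procr*, a receptor used as a marker of mammary stem cells and also made by vascular cells, varied more between fragments than between locations, with 26, 555, 143 and 266 CPM in nipple and 1.84 to 1208 CPM (median 15.5) in duct (log2 difference −0.13, standard error 1.48, edgeR adjusted p = 0.979). Its UMIs came almost wholly from cells that failed the epithelial check. These 9 nipple cells held 536 of 566 *Procr* UMIs (94.7%) and the 10 duct cells 563 of 597 (94.3%). The highest fragment, duct replicate 1, had 404 of its 407 UMIs in the 4 cells with pericyte genes.

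Several genes of amino acid handling were higher in nipple. They were noticed after the values were seen and lie outside the naming rule, apart from *Chac1*, so their counts describe a choice. *Chac1*, which degrades glutathione, had 221, 209.6, 143 and 98.1 CPM in nipple and 0 to 61.4 CPM (median 14.2) in duct (log2 difference 2.88, standard error 0.67, edgeR adjusted p = 0.00907). Of the 20 cytosolic aminoacyl-tRNA synthetases, which charge tRNAs with amino acids, 6 were higher in nipple (2.12% of all genes were) and 0 in duct, 14 had a positive difference and the median was 0.64. *Nars* had 1758, 1157, 1309 and 1147 CPM in nipple and 175 to 816 CPM (median 468) in duct (log2 difference 1.5, standard error 0.33, edgeR adjusted p = 0.0128), and *Gars* 320.4, 266, 298 and 323 CPM against 18.2 to 148 CPM (median 87) (log2 difference 1.72, standard error 0.34, edgeR adjusted p = 0.00152). In both genes the fragments did not overlap. *Sars* was called as well (log2 difference 1.29, standard error 0.32, edgeR adjusted p = 0.0112), and an adjusted p of 0.0877 without nipple replicate 4. *Cars* (0.0356), *Tars* (0.0398) and *Yars* (0.0473) lay near the threshold in edgeR, and each lost the call without any of 7 to 9 of the fragments, with adjusted p of up to 0.211, 0.112 and 0.254 over all alternatives.

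Other genes chosen in this way follow, and none of them speaks for its whole family. *Slc3a2*, the shared heavy chain of several carriers, had 1236, 1484, 1242 and 1418 CPM in nipple and 426 to 757 CPM (median 510.5) in duct (log2 difference 1.31, standard error 0.18, edgeR adjusted p = 6.04e-06). *Slc38a2*, a carrier of small neutral amino acids, had 732, 817, 1035 and 1031 CPM against 272 to 555 CPM (median 393) (log2 difference 1.13, standard error 0.19, edgeR adjusted p = 0.00024). *Eif4ebp1*, a repressor of cap-dependent translation, had 652, 742, 709.9 and 590.5 CPM in nipple and 92.4 to 258 CPM (median 158) in duct (log2 difference 2.07, standard error 0.28, edgeR adjusted p = 9.46e-06). For these 3 genes every nipple fragment exceeded every duct fragment, and all alternatives kept the call. The serine and folate enzymes *Psph* (1.55, edgeR adjusted p = 0.00492) and *Mthfd2* (1.66, edgeR adjusted p = 0.00522) were higher too. *Slc7a1* (1.58, edgeR adjusted p = 0.00857) had an adjusted p of 0.0602 without nipple replicate 2, and *Asns*, asparagine synthetase (1.38, edgeR adjusted p = 0.0222), one of 0.0504 to 0.0716 without nipple replicates 1, 2 or 3. *Shmt2* (1.51, edgeR adjusted p = 0.0203) had an adjusted p of 0.0535 to 0.126 without nipple replicates 1 or 2 or duct replicate 3, and *Sesn2* (1.81, edgeR adjusted p = 0.0237) one of 0.0548 to 0.0802 without nipple replicates 1 or 4 or duct replicates 3 or 4. *Slc7a11* (2.80, edgeR adjusted p = 0.0305), *Trib3* (1.83, edgeR adjusted p = 0.0473) and *Herpud1* (2.35, edgeR adjusted p = 0.0473) each lost the call without any of 5 to 10 of the fragments.

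Many genes of this kind are known to be induced by the transcription factor ATF4 through a composite element with the letters TGATGNAA. RefSeq promoters (GRCm38.p6, 250 bases before to 50 after the gene start) were searched for these letters on both strands. Of the 19 called genes named here, 16 had a promoter in the table and 8 held the letters. The matches are shown to let the letters be read in place, and the other 8 promoters of these genes did not hold them. They are written along the gene with the match, or its reverse complement, in capitals.
Chac1, chr2:119351039-119351066, plus strand: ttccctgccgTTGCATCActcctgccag
Gars, chr6:55037961-55037988, plus strand: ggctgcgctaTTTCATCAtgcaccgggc
Tars, chr15:11399656-11399683, minus strand: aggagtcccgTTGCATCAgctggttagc
Yars, chr4:129189896-129189923, plus strand: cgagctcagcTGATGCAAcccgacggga
Slc7a11, chr3:50443662-50443689, minus strand: ctcatgtggcTGATGCAAacctggagaa
Slc7a11, chr3:50443643-50443670, minus strand: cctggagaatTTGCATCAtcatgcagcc
Asns, chr6:7693215-7693242, minus strand: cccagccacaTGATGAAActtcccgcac
Trib3, chr2:152344029-152344056, minus strand: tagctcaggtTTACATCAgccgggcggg
Herpud1, chr8:94386307-94386334, plus strand: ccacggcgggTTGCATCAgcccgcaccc
The letters were present in the promoters of 15 of 118 genes higher in nipple (12.7%), 1 of 173 genes higher in duct (0.578%), 2.64% of the 5421 tested genes with a promoter and 3.97% of all 32851 promoters. Among the 118 are the 16 promoters of the genes named here, with 8 of the 15 matches, so this share is not independent of the genes shown. A 2nd search, for the CArG box (CCWWWWWWGG, W for A or T), found it in 1.69% of the genes higher in nipple. It was in 4.62% of those higher in duct and 1.88% of the tested genes. A match is a description of the sequence and was not tested as a binding site. A part of ATF4 in the nipple calls was not tested.

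Fibroblast transcripts moved with the nipple. Of 9 tested fibroblast markers outside the rule, 4 were higher in nipple basal cells (2.12% of all genes were) and 0 in duct. Their median was 1.38, and the list summed to 2080 to 3463 CPM in nipple and 1182 to 1668 CPM in duct. *Col6a1* had 188, 394, 491 and 371 CPM in nipple and 95 to 152 CPM (median 116) in duct (log2 difference 1.56, standard error 0.32, edgeR adjusted p = 0.00206), with an expected carry-over of 25% in nipple. The rule genes *Col1a1* (317 ± 85.3 CPM in nipple and 35.3 ± 16.9 CPM in duct) and *Col3a1* (368 ± 82.8 CPM in nipple and 83.4 ± 32.4 CPM in duct) had higher means in nipple and are given without a test, while *Gsn* (−0.21, edgeR adjusted p = 0.721) did not pass. Nipple fragments held 25 to 35 fibroblast class cells each and duct fragments 3 to 11. The part of fibroblast RNA in the genes raised in nipple was not tested as a whole. Without the genes whose expected carry-over was over 20%, there were 140 genes higher in nipple and 212 in duct. Endothelial markers *Pecam1*, *Kdr* and *Flt1* were at 0 UMIs in every basal sum, and 0 of 2 tested endothelial genes and 0 of 1 tested myeloid gene were called. The myeloid list summed to 58.4 to 182 CPM in nipple and 74.3 to 142 CPM in duct, and the endothelial list to 10.8 to 86.4 CPM and 2.27 to 169 CPM. No gene of the mast cell list (at most 64.9 CPM) or of the skeletal muscle and adipocyte list (at most 57.7 CPM) reached the test. Of the hair follicle and sebaceous gland list 4 genes were tested, with *Fst* higher in nipple and *Krt15* in duct, and *Krt35*, *Lhx2* and *Scd3* were at 0. Mitochondrial genes were not used here.

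The nipple minus duct difference of basal cells was set against that of the luminal cells of the same fragments, classed as ER+ (hormone-sensing) or ER- (secretory precursor) by their own marker lists. A term for class by location, fitted over 8557 genes, was called for 79 genes against ER+ luminal cells (0.923%), 48 without duct replicate 4, and for 137 against ER- luminal cells (1.6%). With duct pairs summed these were 30 and 49. For *Hk2* the nipple minus duct difference in basal cells exceeded that in ER+ luminal cells by 3.72 on the log2 scale (standard error 0.54, edgeR adjusted p = 0.000143) and that in ER- luminal cells by 4.42 (0.61, 2.68e-05). In ER+ luminal cells *Hk2* stood at 253 ± 35.3 CPM in nipple (SD, n = 4) and 282 ± 65.1 CPM in duct (SD, n = 6), with a log2 difference of −0.16 and an edgeR adjusted p of 0.969. *Eif4ebp1* and *Slc38a2* passed against both luminal classes, at 1.86 and 1.23 for *Eif4ebp1* (edgeR adjusted p = 0.000143 and 0.0135) and 1.25 and 1.59 for *Slc38a2* (0.00611 and 0.00023). None of the 20 synthetases was called between nipple and duct in ER+ or ER- luminal cells, but the class by location term passed for none of them either, with the lowest adjusted p at 0.0535 (*Gars*, against ER+ cells, edgeR), so a difference between the classes was not shown.

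For *Krt19*, *S100a14*, *Lgals3* and *Id2* the nipple minus duct difference was lower in basal cells than in either luminal class, by terms of −1.38 and −1.57 for *Krt19*, −3.21 and −4.24 for *S100a14*, −1.62 and −2.65 for *Lgals3* and −3.45 and −2.59 for *Id2* (edgeR adjusted p of at most 0.0407). Their differences within luminal cells had no common direction, with −0.28 in ER+ and −0.12 in ER- cells for *Krt19*, 0.45 and 1.57 for *S100a14*, −0.24 and 0.80 for *Lgals3* and 1.20 and 0.24 for *Id2*, of which that of *S100a14* in ER- cells was called, higher in nipple (edgeR adjusted p = 0.00502). Expected carry-over in duct basal cells was 36.2% for *Krt19*, 29.8% for *Lgals3*, 7.33% for *S100a14* and 7.19% for *Id2*. Duct fragments held 26 to 43 ER+ class cells each and nipple fragments 7 to 13. The part of luminal RNA in these terms was not tested. Against ER+ but not ER- cells the term was called for *Col4a1* (−2.0, standard error 0.46, edgeR adjusted p = 0.0291), *Col4a2* (−2.77), *Htra1* (−2.62) and *Tgfbr1* (3.87), and against ER- cells but not ER+ cells for *Sfrp1* (5.81, standard error 1.29, edgeR adjusted p = 0.0107), *Tspan8* (4.75) and *Lamc1* (−2.82). *Sfrp1* was also higher in nipple in ER+ luminal cells (4.62, edgeR adjusted p = 0.00584). *Tspan8* was present in ER- luminal cells of both locations, with 267 ± 103 CPM in nipple and 172 ± 95.1 CPM in duct (SD, n = 4 and 6).

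Other changes were not called as different between classes. *Scn7a*, *Mmp3*, *Mmp2* and *Igfbp6* were higher in nipple in the luminal classes too. Log2 differences in ER+ and ER- cells were 4.91 and 4.32 for *Scn7a* and 3.83 and 4.29 for *Mmp3*. They were 3.36 and 2.44 for *Mmp2* and 2.06 and 2.12 for *Igfbp6*. All were called in edgeR except that of *Scn7a* in ER- cells (adjusted p = 0.196). *Tagln* was lower in nipple in all classes, with −1.57, edgeR adjusted p = 0.00272 in basal cells, −1.89 in ER+ (adjusted p = 0.0412 in edgeR) and −2.58 in ER- luminal cells (0.00893), but its luminal level was 7.39 to 53.4 CPM on average, where RNA from basal wells cannot be told apart. *Igfbp2* showed the same, with −3.34 (0.00858) and −6.15 (0.00683) and luminal means of at most 15.9 CPM. For *Actg2* and *Slpi* the terms did not pass (edgeR adjusted p = 0.659 and 0.918 for *Actg2*, 0.333 and 0.215 for *Slpi*), with standard errors of 1.56 to 1.91, so that a difference between classes was not detectable at these counts.

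**Figure D5:**
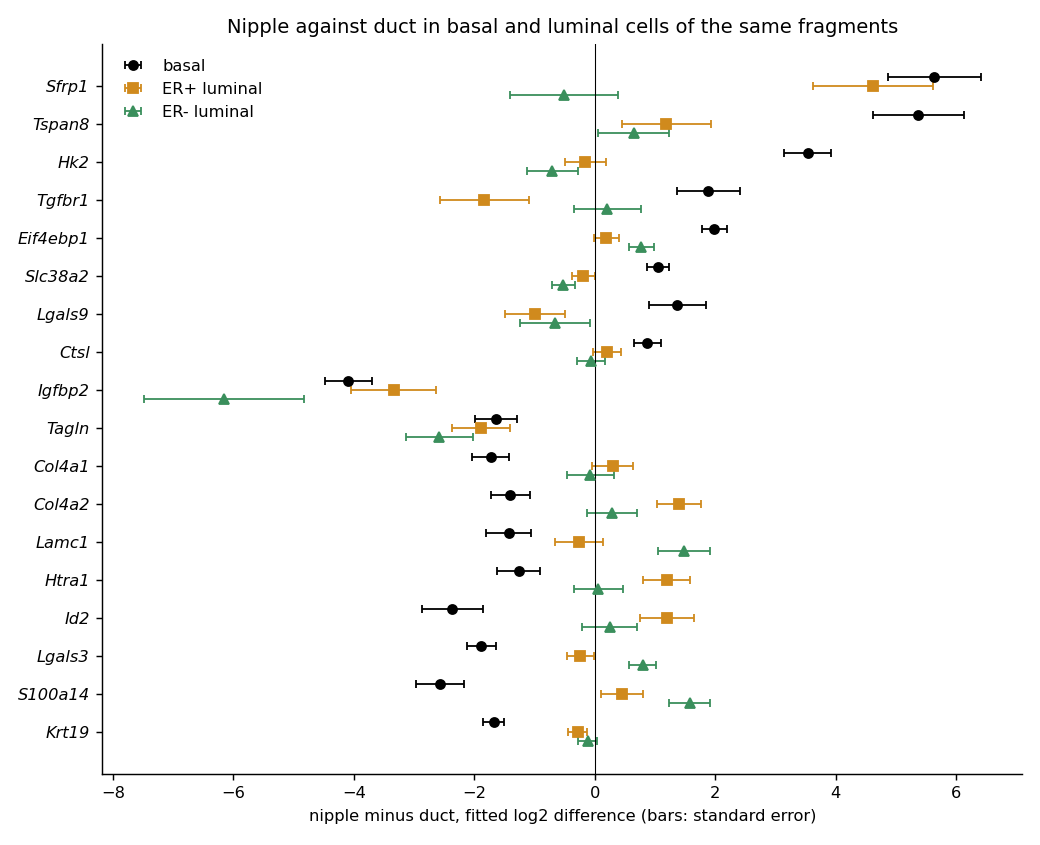
Fitted nipple minus duct log2 difference, with standard error, of 18 genes in basal, ER+ luminal and ER- luminal cells of the same 4 nipple and 6 duct fragments. *Hk2* lies at a large positive value in basal cells, at −0.16 in ER+ and at −0.70 in ER- luminal cells, neither of them called. *Tagln* and *Igfbp2* are negative in all 3 classes.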

How the data were processed

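The authors extracted UMIs (UMI-tools), trimmed and checked reads (Trim Galore, FastQC), aligned them to mm10 (STAR, unique alignments) and counted them (featureCounts), and deposited the raw UMI count of each gene in each cell. Of 17788 rows 67 were spike-ins (0.758% of UMIs). Limits of 5% ERCC, 5000 and 120000 UMIs and 200 and 6000 genes left 1317 of 1419 cells. Cells were scaled to 10000 UMIs without spike-ins, logged and classed by the highest mean z-score over lists with 28 genes in all, whose tests are not read. Counts were summed per fragment and class and fitted with edgeR 4.0.16 (quasi-likelihood, TMM, all locations, R 4.3.3) with Benjamini-Hochberg adjustment over all genes past a filter on low counts. Sums of 356411 to 719416 UMIs set the precision, and intervals and floors cover counting error only. In counts simulated for this comparison (7185 genes), edgeR recovered 16.9%, 58.1% and 81.0% of genes changed by a log2 of 1, 2 and 3 with 4.85% false calls. DESeq2 1.42.0, an alternative, had 10.6% on another draw of counts, so the rates do not compare the tools. The simulated TEB sums had the same means as duct, unlike the data.

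Groups came from the labels. Named were the 12 genes with the largest non-overlapping difference in each direction and at least 50 CPM, the study's basal genes, up to 4 called genes per direction and 2 abundant others of each list, and abundant genes of other cells. Members and lists were chosen with earlier results of these data known. Positions are from GENCODE vM21 by symbol (143 of 145 genes). Alternatives changed normalization, filters, class rule, depth and fragments one at a time, and the *Acta2* minimum and the sums of duct pairs were added after the data were seen. A few genes that the counts include are not reported here.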

Additional observations from a re-analysis of the deposited data

Results flagged for a closer look

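In basal cells, 33 of 212 groups of values (15.6%, where chance gives about 1 in 20 for normal values) held 1 fragment far from the rest. A gene counted in 1 fragment alone is always flagged, so the rate of 1 in 20 does not apply to such groups. Many of the flagged groups involve a gene with a few UMIs in 1 nipple fragment and none or hardly any in the others. In nipple replicate 4 these highest values were 1.78 CPM for each of *Ppfibp2*, *Sema3b* and *Ccnb1*, 3.57 CPM for *Erbb2* and *Ccnb2*, 7.14 CPM for *Top2a* and 10.7 CPM for *Cenpw*. In nipple replicate 2 they were 1.6 CPM for *Slc6a15*, 4.8 CPM for *Kcnmb1* and 16 CPM for *Cenpa*, and in nipple replicate 1 6.49 CPM for *Pappa*.

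At higher counts, nipple replicate 4 was highest for *Runx1* (787 CPM) and nipple replicate 2 for *Snai2* (205 CPM), *Ereg* (54.4 CPM) and *Cyp1b1* (33.6 CPM), while nipple replicate 1 was lowest for *Cp* (113 CPM) and *Ccnd2* (60.6 CPM). Duct replicate 5 was highest for *Igfbp2* (2401 CPM), *Cald1* (1890 CPM) and *Sct* (393 CPM). Duct replicate 2 was highest for *Wnt6* (149 CPM), *Lama1* (102 CPM) and *Col9a1* (52 CPM). Duct replicate 6 was highest for *Id1* (398 CPM) and *Ptx3* (31.4 CPM) and lowest for *Krt15* (1348 CPM). Duct replicate 1 was highest for *Mt1* (7533 CPM), *Procr* (1208 CPM), *Csn3* (234 CPM) and *Tspan8* (23.7 CPM) and lowest for the median of genes per basal cell (2635). Duct replicate 3 was highest for *Slpi* (75 CPM) and for the basal share of kept cells (36.8%).

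The nipple minus duct difference in basal cells differed from that in luminal cells, by the class by location term of edgeR at an adjusted p under 0.05, in 34 cases among the genes named. Against ER+ cells the basal difference was higher by 3.87 (log2, as are all values here) for *Tgfbr1*, 3.72 for *Hk2*, 2.48 for *Lgals9*, 1.86 for *Eif4ebp1*, 1.25 for *Slc38a2*, 0.95 for *Slc3a2* and 0.73 for *Mt1*. It was lower against ER+ cells at −6.94 for *Ppfibp2*, −4.18 for *Ccnd2*, −3.45 for *Id2*, −3.21 for *S100a14*, −2.77 for *Col4a2*, −2.62 for *Htra1*, −2.0 for *Col4a1*, −1.62 for *Lgals3*, −1.43 for *Mfge8* and −1.38 for *Krt19*.

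Against ER- cells it was higher by 5.81 for *Sfrp1*, 4.75 for *Tspan8*, 4.42 for *Hk2*, 1.67 for *Cst3*, 1.59 for *Slc38a2*, 1.23 for *Eif4ebp1* and 1.10 for *Ctsl*. It was lower against ER- cells at −6.82 for *Ppfibp2*, −4.24 for *S100a14*, −4.06 for *Cenpw*, −2.82 for *Lamc1*, −2.78 for *Col6a1*, −2.65 for *Lgals3*, −2.59 for *Id2*, −1.94 for *Mfge8*, −1.57 for *Krt19* and −0.81 for *Krt8*. The terms for *Ppfibp2* rest on 1 UMI in nipple basal cells, and their size depends on the prior count. The expected carry-over of *Krt19* and *Lgals3* is given above.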

How the results depend on the processing

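Of 93 called genes named, 56 passed under each of the 24 alternatives that tested them. The other 37 lost the call in at least 1, and no called gene changed direction. Some genes that kept the call were not part of every alternative, such as *Birc5*, in 21, and *Col9a1*, in 22. The 394 genes called became 193 with cells thinned to 5000 UMIs (81 higher in nipple, 112 in duct) and 261 to 364 without 1 fragment (79 to 139 higher in nipple). DESeq2 called 371 genes higher in duct and 564 in all. The 79 genes called against ER+ luminal cells became 167 without the filter on low counts and 48 to 73 without 1 fragment. The difference in basal share was 3.96 to 7.58 percentage points without 1 fragment, and passed, at 7.58, without duct replicate 3. With duct pairs of the same title digit summed, 228 genes were called (61 higher in nipple), 30 against ER+ and 49 against ER- luminal cells, and with duct values averaged per digit the differences of −616 genes and 0.503 percentage points of ERCC per cell no longer passed. Thinning and summing leave fewer counts or samples. The cause of the other changes was not tested.

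Of 3 genes that did not pass, *Procr* turned from −0.13 (log2) to 0.066 with a minimum of 10000 UMIs and to 0.48 with a class margin of 0.25, and ranged from −0.94 to 1.49 without 1 fragment. *Cd200* became 0.11 with the class taken from *Krt5*, *Krt14* and *Krt17*. *Trp63* ranged from −0.020 to 0.84 without 1 fragment, the former without nipple replicate 3. List counts stayed close to their value in 809 of 912 cases. With 15 to 32 cells per sum, a change of 2-fold was rarely detectable. No paired analysis was possible because the titles of nipple and duct fragments share no first digit and replicate numbers only follow the order of the samples.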

Other observations

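Beyond the lists and the naming rule, a few abundant genes were named after their values were seen. The metallothionein gene *Mt2*, which binds zinc and copper, stood at 6108, 7053, 7109 and 5619 CPM in nipple replicates 1 to 4 and 2498 to 3016 CPM (median 2683) in duct (log2 difference 1.26, standard error 0.14, edgeR adjusted p = 2.4e-07). Every nipple fragment lay above every duct fragment, and the adjusted p was 0.0231 in cells that passed the epithelial check. *Mt1* had 9000.4, 10340.1, 10035 and 8636 CPM against 5251 to 7533 CPM (median 5690.2) (log2 difference 0.69, standard error 0.13, edgeR adjusted p = 0.000688), also without overlap, but an adjusted p of 0.165 with cells thinned to 5000 UMIs. The glucose transporter *Slc2a1* had 247, 314, 316 and 169 CPM in nipple and 65.8 to 146 CPM (median 112) in duct (log2 difference 1.22, standard error 0.29, edgeR adjusted p = 0.00698), and an adjusted p of 0.0527 without nipple replicate 2.

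*Mfge8*, the milk fat globule protein that tethers dying cells to phagocytes, stood at 587, 664, 513 and 496 CPM in nipple and 1312 to 1931 CPM (median 1621) in duct (log2 difference −1.52, standard error 0.17, edgeR adjusted p = 3.37e-07), again without overlap. In luminal cells it did not pass, with log2 differences of −0.22 in ER+ and 0.36 in ER- cells (edgeR adjusted p = 0.894 and 0.431). Another pair of collagens was higher in duct. *Col18a1*, of the basement membrane zone, had 143, 283, 222 and 260.5 CPM against 378 to 563 CPM (median 479.8) (log2 difference −1.08, standard error 0.20, edgeR adjusted p = 0.00057), and *Col9a1* had no nipple UMI and 8.9 to 52 CPM (median 17.5) in duct, at least 14.7-fold higher (edgeR adjusted p = 0.00226).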
